A study of Rattus norvegicus with 8 samples.

Results

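The carbonic anhydrase family was followed in kidneys of HSRA rats that have a single kidney from birth and of HSRA rats with a kidney pair. The family was taken as every probe set annotated to exactly one of the gene symbols Car2, Car3, Car4, Car5b, Car8, Car11, Car12, Car13, Car14 and Car15. This gave 11 probe sets of 10 genes, among 17245 genes named on the array, and 9 of the 10 genes passed the filter on dim genes. HSRA is a rat model of unilateral renal agenesis derived from a heterogeneous stock, and both groups carry this background. HSRA-S, the solitary kidney group, and HSRA-C, the control group whose animals have both kidneys, held 4 animals each, all killed at 4 weeks of age. Whole kidney RNA was hybridised to Affymetrix Rat Gene 1.1 ST arrays, 1 per animal, and the sources used here do not give sex or litter. The family was selected from known gene functions, but with the differences between HSRA-S and HSRA-C on these arrays already known. The differences of its members are therefore given as a description, with standard errors (SE) and 95% intervals, and without a test.

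Carbonic anhydrases are zinc enzymes that turn carbon dioxide and water into bicarbonate and a proton, and back. In the kidney, cytosolic and membrane-bound forms serve the recovery of filtered bicarbonate in the proximal tubule, and cytosolic Car2 also supplies protons to the acid-secreting intercalated cells of the collecting duct. Some relatives, including Car8 and Car11, have lost the enzyme activity and are called carbonic anhydrase-related proteins. Levels are log2 of the array intensity, so a step of 1 is a doubling, and a level is compared only within a gene because probes differ in how brightly they report.

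The arrays had median intensities of 30.8 to 32.3 and correlated at 0.987 to 0.995 on the log2 scale, and their number limits the precision of each value. The tissue label was met by its defining genes on all 8 arrays, with Umod of the thick ascending limb at log2 11.55 to 11.70, Slc34a1 of the proximal tubule at 11.83 to 12.09 and Nphs1 of podocytes at 6.64 to 6.99. HSRA-C replicates 3 and 4 stood apart in the mean log2 level of 7 inner medullary genes. It was 9.15 and 9.26 there, against 7.41 to 8.49 on the others. The urea transporter Slc14a2 was at 8.86 and 9.0 against 4.44 to 7.22, and HSRA-S replicate 4 held the lowest of these values. Aqp4, Akr1b1 and S100a4 were also highest on these 2 control arrays. Slc5a3 was not, at 7.98 and 8.16 against 8.32 in HSRA-S replicate 1. Neither was Aqp1 in HSRA-C replicate 4, at 10.52, and Fxyd2 ran only from 11.78 to 11.90. The mean of 18 proximal tubule genes minus that of 8 collecting duct principal cell genes, called the tubule balance here, was 1.41 and 1.23 in those 2 control samples. The fourth solitary kidney reached 2.68, and the other 5 samples lay between 1.89 and 2.06. In whole tissue, fewer cells of a type and less RNA per cell cannot be told apart. Member differences are therefore also given without HSRA-C replicates 3 and 4 and with the tubule balance as a covariate.

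Most members overlapped between the 2 kinds of kidney, while Car14 and Car13 were higher and Car11 was lower in HSRA-S without overlap of the groups. Car14 was 1.64-fold higher and Car11 1.37-fold lower. Car13 was 1.24-fold higher, but it was so dim that it did not pass the filter. Of the 9 members past the filter, 6 were on the higher and 3 on the lower side, with a median difference of 0.049, against 0.015 for the 13796 genes tested. The groups of 2 of these 9 members did not overlap, while over all genes tested that share was 6.29%. It was 4.12% for genes higher in HSRA-S and 2.17% for lower ones. Since the family was chosen with this contrast known, nothing is read from that comparison. With limma and Benjamini-Hochberg adjustment, 0 of 13796 genes (0%), and so no member, passed an adjusted p under 0.05, while 1663 genes (12.1%) had an unadjusted p under 0.05.

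**Figure D1:**
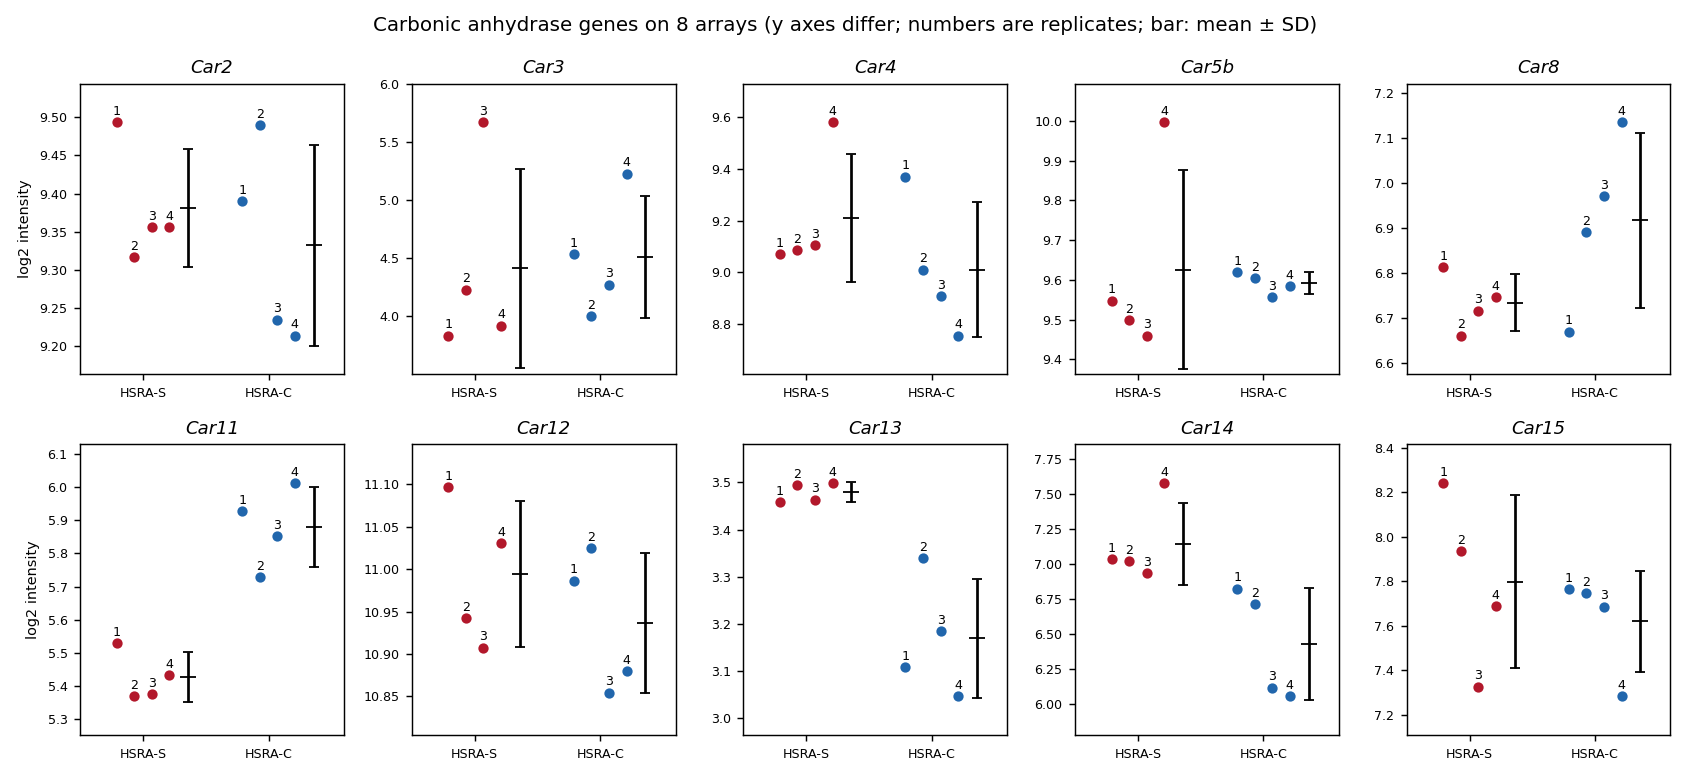
Log2 intensity (y axis, a different range in each panel) of the 10 carbonic anhydrase genes in 4 HSRA-S and 4 HSRA-C kidneys (x axis). Points are single arrays numbered by replicate and bars are the mean ± SD. Car14 and Car13 lie higher and Car11 lower in HSRA-S without overlap, and HSRA-S replicate 4 is the highest point of Car4, Car5b and Car14.

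Among the membrane-bound enzymes, Car14 showed the widest group difference of the family on all 8 arrays, while that of Car11 was wider without HSRA-C replicates 3 and 4 and with the covariate. Car14 is a transmembrane enzyme whose catalytic part faces the outside of the cell, and in rodents it is known from the proximal tubule. Its log2 level was 7.03, 7.02, 6.93 and 7.58 in HSRA-S replicates 1 to 4, and 6.82, 6.71, 6.11 and 6.05 in HSRA-C replicates 1 to 4. The lowest solitary kidney was thus 0.11 above the highest control, and the control values fell into a higher pair and a lower pair, the latter being replicates 3 and 4. The means were 7.14 ± 0.30 and 6.43 ± 0.40 (SD, n = 4 each), a difference of 0.72 (SE 0.20, 95% interval 0.27 to 1.16). Without HSRA-C replicates 3 and 4 the difference was 0.37 (SE 0.17), and with the tubule balance as a covariate it was 0.29 (SE 0.076). Without HSRA-S replicate 4 as well, an alternative chosen after seeing the data, it was 0.23 (SE 0.083). The level of Car14 was highest on the array with the highest tubule balance and lowest on the 2 arrays with the lowest, and the part of the balance in the group difference was not tested beyond these values. The 5 arrays of the fit that gave 0.23 had a balance between 1.89 and 2.06. On them the 3 solitary kidneys were at 6.93 to 7.03 and the 2 controls at 6.71 and 6.82.

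The 300 bases around the start of Car14 and of Car11, the tested members whose groups did not overlap and which lay on opposite sides, are shown for reference from the RefSeq promoter table, build GRCr8. They run from 250 bases before the start to 50 after it, with each CG pair in capitals. Car14 lies at chr2:186138115-186138414 on the minus strand and Car11 at chr1:105306290-105306589 on the plus strand.
Car14: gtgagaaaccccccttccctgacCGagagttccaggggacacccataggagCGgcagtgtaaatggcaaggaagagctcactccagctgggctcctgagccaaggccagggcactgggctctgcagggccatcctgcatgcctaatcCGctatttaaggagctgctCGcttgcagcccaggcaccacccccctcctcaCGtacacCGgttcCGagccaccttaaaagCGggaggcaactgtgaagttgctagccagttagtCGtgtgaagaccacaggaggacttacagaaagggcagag
Car11: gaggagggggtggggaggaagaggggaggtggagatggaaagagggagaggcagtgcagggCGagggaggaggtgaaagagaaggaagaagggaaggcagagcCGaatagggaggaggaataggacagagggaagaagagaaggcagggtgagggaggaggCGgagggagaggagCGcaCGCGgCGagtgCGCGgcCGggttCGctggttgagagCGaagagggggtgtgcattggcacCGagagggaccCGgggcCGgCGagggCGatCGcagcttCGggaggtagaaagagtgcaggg
The Car11 window is the richer in CG pairs, with 19 against 9 in Car14, where the median of 33469 windows of that length in the table was 7. Promoters of 6 of the 10 members were in the table, those of Car4, Car5b, Car11, Car12, Car14 and Car15. The letters TATAAA, searched on both strands, occurred in 1 of these 6 windows, that of Car4, and in 14.2% of all windows. The letters CCAAT occurred in the windows of Car11 and Car15 and in 37.5% of all windows, and GGGCGG in that of Car12 and in 33.1%. A match of letters describes the sequence only.

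Car4, which is held on the outer face of the membrane by a lipid anchor and is a major enzyme of the proximal tubule surface, overlapped between the groups. Its log2 level was 9.07, 9.09, 9.10 and 9.58 in HSRA-S and 9.37, 9.01, 8.91 and 8.76 in HSRA-C. HSRA-S replicate 4 was the highest of all, followed by HSRA-C replicate 1, while HSRA-C replicates 3 and 4 were the lowest. The difference was 0.20 (SE 0.15, 95% interval -0.13 to 0.53), and it became 0.020 (SE 0.17) without those 2 controls and -0.098 (SE 0.083) with the covariate. The order of Car4 thus ran with the tubule balance at both ends, and its sign depended on the arrays used. A second, dimmer probe set of Car4 pointed the other way, at 6.51 on average in HSRA-S and 6.62 in HSRA-C.

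Car12, a transmembrane enzyme of tubule epithelium, was the steadiest member. Its levels ran from 10.91 to 11.10 in HSRA-S and from 10.85 to 11.03 in HSRA-C, with SDs of 0.086 and 0.082 (n = 4 each). The difference was 0.058 (SE 0.068, 95% interval -0.094 to 0.21), so a change of the size seen for Car14 lies outside its interval. Car15, a lipid-anchored enzyme of rodent kidney, varied far more, from 7.33 to 8.24 in HSRA-S and from 7.28 to 7.76 in HSRA-C. HSRA-S replicate 1 was the highest, while HSRA-C replicate 4 and HSRA-S replicate 3 were the lowest. Its difference of 0.18 (SE 0.18, 95% interval -0.23 to 0.58) was as large as its SE. It moved with single arrays, to 0.030 without HSRA-S replicate 1, 0.066 without HSRA-C replicate 4 and 0.34 without HSRA-S replicate 3.

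**Figure D2:**
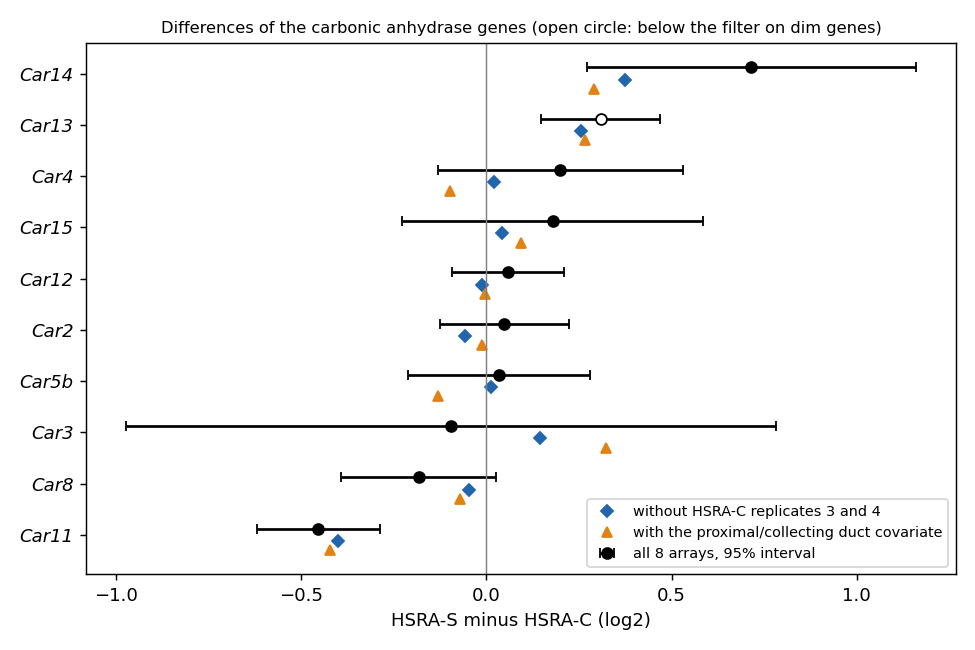
Difference of the 10 genes, HSRA-S minus HSRA-C, on the log2 scale (x axis). Circles with bars are the value on all 8 arrays with its 95% interval, diamonds the value without HSRA-C replicates 3 and 4, and triangles that with the tubule balance as a covariate. Car11 stays between -0.45 and -0.40 in all 3, while Car14 moves from 0.72 to 0.37 and 0.29.

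Among the cytosolic enzymes, Car2 differed little. Car2 is the fast, abundant form of proximal tubule and intercalated cells, and is also found in red blood cells. Its level was 9.49, 9.32, 9.36 and 9.36 in HSRA-S and 9.39, 9.49, 9.23 and 9.21 in HSRA-C. The groups overlapped over most of their range, and the difference was 0.049 (SE 0.078, 95% interval -0.12 to 0.22). Without HSRA-C replicates 3 and 4 it was -0.059 (SE 0.082). Red blood cell genes, 5 in number, had a mean log2 level that ranged from 6.71 to 7.17 in HSRA-S and from 6.41 to 7.25 in HSRA-C, with the highest value in HSRA-C replicate 1 and the lowest in HSRA-C replicate 4. Of these genes, Hbb was at 9.58 to 11.03 over the 8 arrays, and the part of blood in the Car2 level was not tested.

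Car13, a further cytosolic form, lay near the floor of the array. It was at 3.46, 3.49, 3.46 and 3.50 in HSRA-S and 3.11, 3.34, 3.19 and 3.05 in HSRA-C, and its mean was under the filter at log2 3.63. The groups did not overlap, with a difference of 0.31 (SE 0.072, 95% interval 0.15 to 0.47) in a fit of all 17245 genes. The value was 0.26 (SE 0.088) without HSRA-C replicates 3 and 4. At this intensity a level is close to background, and array summaries compress differences there.

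Car3, a slow enzyme known from muscle, fat and liver, was the most variable member. Its level was 3.83, 4.23, 5.67 and 3.92 in HSRA-S and 4.54, 4.00, 4.27 and 5.23 in HSRA-C. HSRA-S replicate 3 and HSRA-C replicate 4 were high and the remaining 6 arrays were between 3.83 and 4.54, so the high values crossed the groups. Its spread within groups was larger than that of 99.8% of the genes tested, and its difference of -0.096 had an SE of 0.39 (95% interval -0.97 to 0.78). The mean log2 level of 12 adipocyte genes was 5.09 in HSRA-S replicate 3 and 5.11 in HSRA-C replicate 4, inside the span of 4.97 to 5.22 over all arrays. Adiponectin (Adipoq) was at 4.80 and 4.82 in these 2 samples, against 4.68 to 5.25 over all arrays. Fabp4, a fatty acid binding protein of fat cells, was at 3.80 in HSRA-S replicate 3, and at 4.20 in HSRA-C replicate 4, its highest level of all arrays. The mean of 7 skeletal muscle genes was 4.04 and 4.03, at the low end of 4.03 to 4.14, with muscle creatine kinase (Ckm) at 4.60 and 4.39. The 2 arrays high in Car3 did not have the highest mean of either list. The mean of 4 urothelial genes was 5.67 in HSRA-S replicate 3 and 5.79 in HSRA-C replicate 4. Over all arrays it ran from 4.57 to 5.79. Among them, Upk1a, Upk1b and Upk3a were highest in HSRA-S replicate 3 (5.88, 4.63 and 5.26), then in HSRA-C replicate 4 (5.68, 4.54 and 5.03). Psca was highest in HSRA-C replicate 3, at 7.95. The part of fat, muscle or urothelium in the Car3 level was not tested.

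Car5b, the mitochondrial form of many tissues, was uniform apart from a single array. Its level was 9.55, 9.50 and 9.46 in HSRA-S replicates 1 to 3 and 9.997 in replicate 4, and 9.62, 9.60, 9.56 and 9.58 in HSRA-C. HSRA-S replicate 4, the array with the highest tubule balance, stood above every other kidney, which reached at most 9.62. The difference over all arrays was 0.034 (SE 0.11, 95% interval -0.21 to 0.28). Without HSRA-S replicate 4 the sign turned to -0.090 (SE 0.060) and the 3 other solitary kidneys lay below all 4 controls.

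The related proteins without enzyme activity were both on the lower side in HSRA-S. Car11, a secreted relative best known from the brain, was at 5.53, 5.37, 5.37 and 5.43 in HSRA-S and 5.93, 5.73, 5.85 and 6.01 in HSRA-C. Every solitary kidney was below every control, with a gap of 0.20 between the nearest samples, and the spread within each group was small. The means were 5.43 ± 0.075 and 5.88 ± 0.12 (SD, n = 4 each), a difference of -0.45 (SE 0.075, 95% interval -0.62 to -0.29). Within the controls, replicates 4, 3, 2 and 1 had a tubule balance of 1.23, 1.41, 1.89 and 2.06 and Car11 levels of 6.01, 5.85, 5.73 and 5.93. Its difference was -0.40 (SE 0.090) without HSRA-C replicates 3 and 4 and -0.42 (SE 0.092) with the covariate. Over the 8 fits that left out a single array it stayed between -0.51 and -0.41. Of 5 nerve and neuron genes named on the array, only Tubb3 passed the filter on dim genes. Their mean log2 level was 3.40 to 3.48 in HSRA-S and 3.47 to 3.55 in HSRA-C, below the filter in every kidney.

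Car8, known as a partner of the inositol trisphosphate receptor in Purkinje neurons, was at 6.81, 6.66, 6.72 and 6.75 in HSRA-S and 6.67, 6.89, 6.97 and 7.14 in HSRA-C. Only HSRA-C replicate 1 lay within the range of the solitary kidneys, and replicates 4 and 3 were the highest. The difference of -0.18 (SE 0.094, 95% interval -0.39 to 0.026) shrank to -0.046 (SE 0.090) without HSRA-C replicates 3 and 4, and to -0.073 (SE 0.10) with the covariate.

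**Figure D3:**
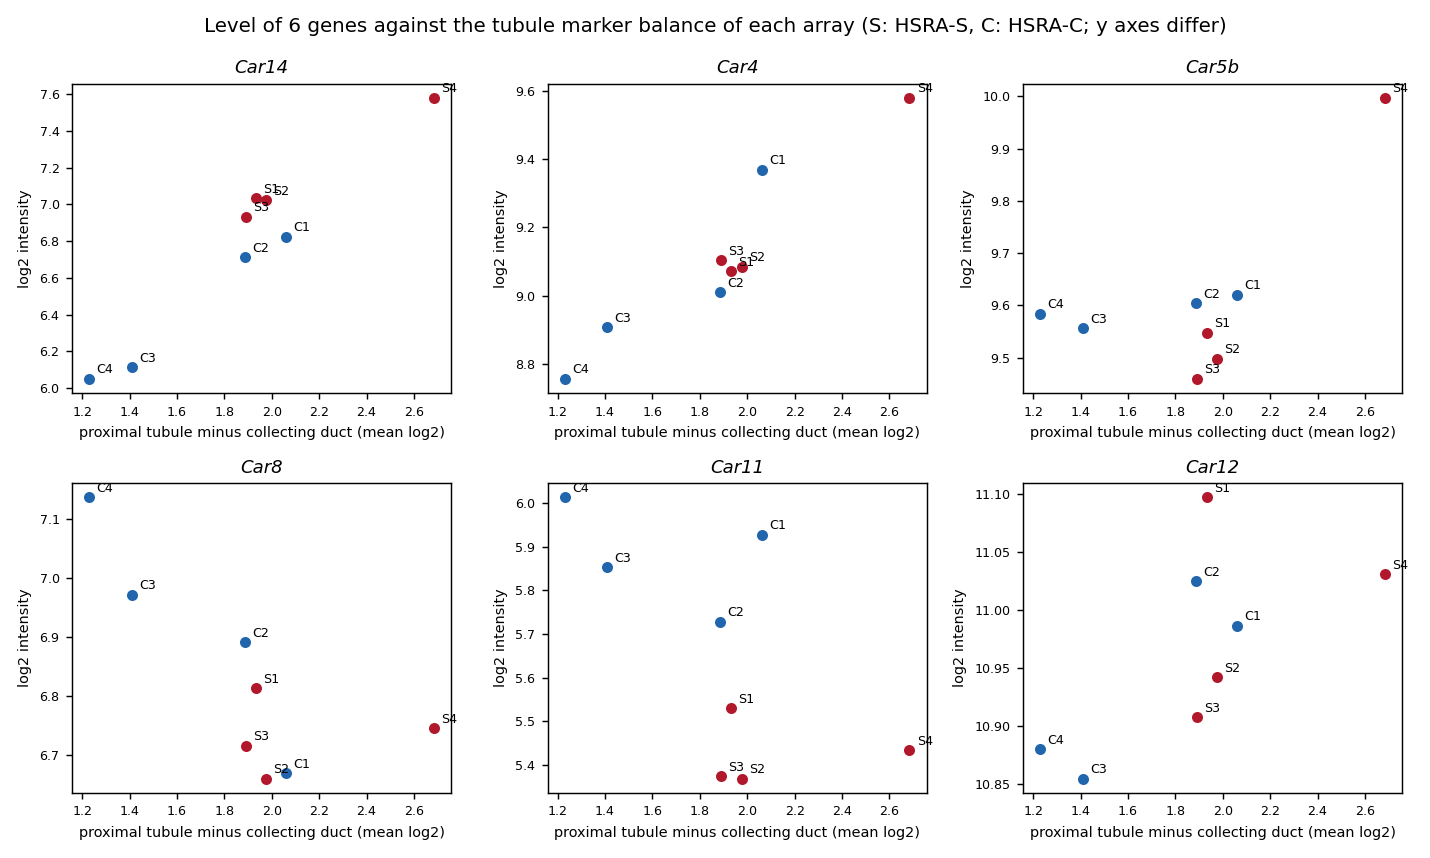
Log2 intensity (y axis, a different range in each panel) of Car14, Car4, Car5b, Car8, Car11 and Car12 against the tubule balance (x axis, mean log2 of proximal tubule genes minus that of collecting duct principal cell genes) on each of 8 arrays. Car14 and Car4 are highest in HSRA-S replicate 4, at a balance of 2.68, and lowest in HSRA-C replicates 3 and 4, at 1.41 and 1.23. Car11 is at 5.37 to 5.53 in HSRA-S and at 5.73 to 6.01 in HSRA-C.

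The genes whose levels ran nearest to Car14 were found by the root mean square difference of levels centred on their mean, over all 8 arrays. They were Slc15a1, a peptide transporter, Slc7a7, an amino acid transporter subunit of the proximal tubule, and Epb41l3, a membrane skeleton protein. Their distances from Car14 were 0.11, 0.14 and 0.14 on the log2 scale, where Car14 itself varied by 0.47 around its mean. Slc7a7 is also among the proximal tubule genes of the tubule balance, so its likeness is not separate from that of Car14 to the balance. Slc15a1 was at 6.30 to 7.04 in HSRA-S and at 6.55, 6.27, 5.77 and 5.62 in HSRA-C. The nearest genes to Car3 were Upk1a, a urothelial gene, Nipal1 and Man1c1, at 0.43 to 0.44 where Car3 varied by 0.62. This measure also counts the size of the swings, so it cannot show whether a gene of smaller range ran in the same order.

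In the RefSeq gene order of assembly GRCr8, Car2 and Car3 are direct neighbours on chromosome 2, followed by Car1 and Car13, while the remaining members lie apart. Car1, the red blood cell enzyme between Car3 and Car13, was at -0.15 (SE 0.096), so genes of this cluster lay on both sides. Car1, Car3 and Car13 were dim, which limits this reading. Next to Car11 are Ntn5, a netrin gene at -0.15 (SE 0.079), and Dbp, a clock output transcription factor at -0.087 (SE 0.22), and the groups of both overlapped. Next to Car14 are Aph1a, a gamma-secretase subunit at 0.082 (SE 0.052) without overlap of the groups, and Anp32e, a histone chaperone at 0.17 (SE 0.10) with overlap.

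Of 8 further genes that encode carbonic anhydrases or proteins with such a domain, 7 were named on the array and passed the filter, and the groups of 1 did not overlap, where over all genes tested that share was 6.29%. That gene was Car6, which encodes a secreted enzyme known from saliva. Car6 was at 8.17, 8.14, 8.32 and 8.60 in HSRA-S and 7.90, 8.01, 7.73 and 7.65 in HSRA-C. All solitary kidneys were above all controls, and the highest and lowest values were again HSRA-S replicate 4 and HSRA-C replicates 4 and 3. The difference was 0.48 (SE 0.11), and 0.35 (SE 0.13) without those 2 controls and 0.28 (SE 0.087) with the covariate. Car1, the mitochondrial Car5a, the cytosolic Car7, the hypoxia-induced Car9 and the receptor phosphatases Ptprg and Ptprz1 lay between -0.15 and 0.11, with overlap of their groups. Car1, Car5a and Ptprz1 were dim, with group means of 3.69 to 3.99 close to the filter at 3.63, so their differences may be compressed.

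**Figure D4:**
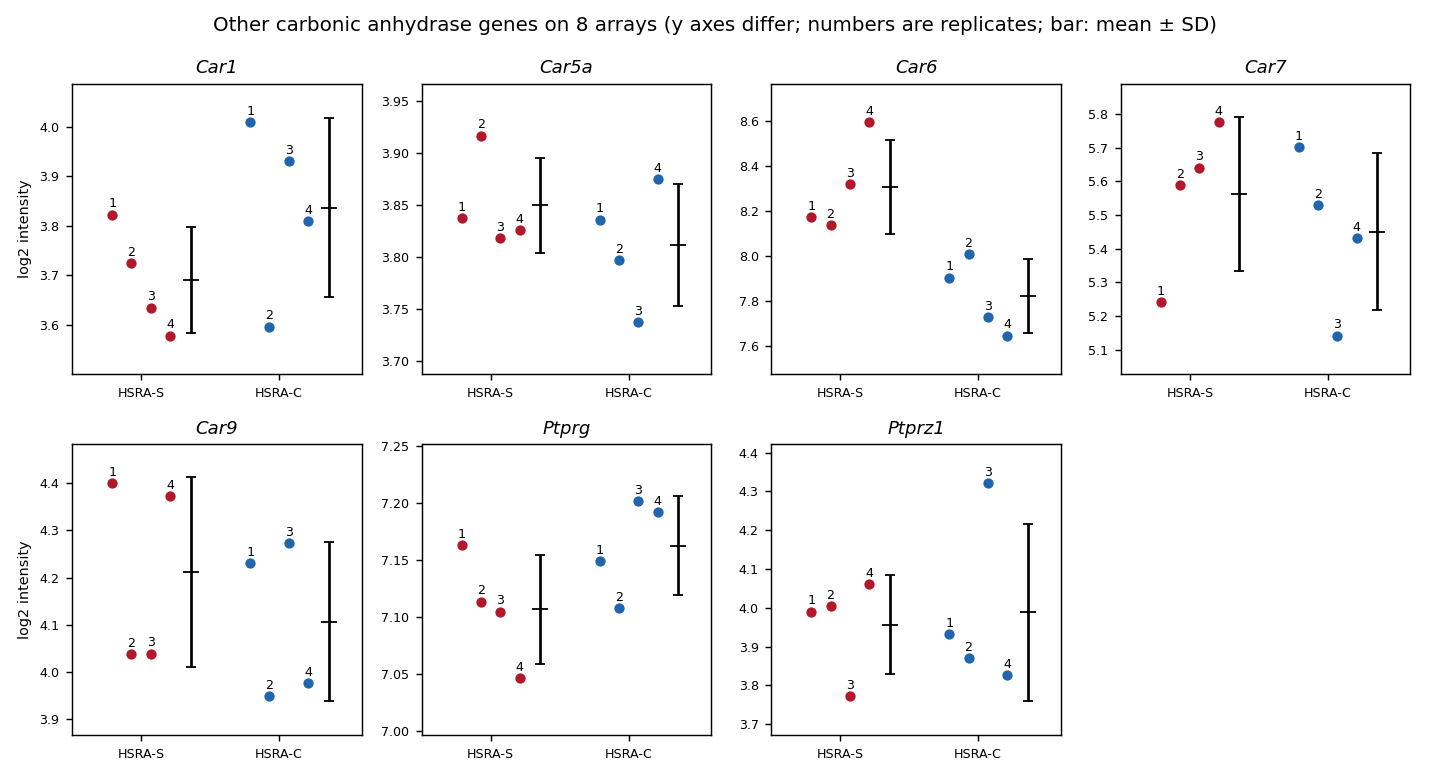
Log2 intensity (y axis, a different range in each panel) of 7 further genes with a carbonic anhydrase domain in 4 HSRA-S and 4 HSRA-C kidneys (x axis). Points are arrays numbered by replicate and bars the mean ± SD. Only Car6 separates the groups, with HSRA-S at 8.14 to 8.60 and HSRA-C at 7.65 to 8.01.

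Genes of acid-base transport and its regulation were followed in a list of 50 genes, of which 47 were named on the array and 46 passed the filter. Of these 46, 22 were higher and 24 lower in HSRA-S, with a median difference of -0.0045 against 0.015 for all genes tested. None passed the test in limma (0 of 46 in either direction), and 14 had an unadjusted p under 0.05, 10 higher and 4 lower. Over all 13796 genes these were 1663 (12.1%), 1016 higher and 647 lower. The sign of that median turned under 8 of the alternatives listed in the closing section. The groups of 7 of the 46 did not overlap, of which 5 were higher and 2 lower, beside 6.29% of all genes tested, or 4.12% higher and 2.17% lower. The 5 were the bicarbonate and oxalate exchanger Slc26a6 and the proton pump subunits Atp6v1a, Atp6v1c1, Atp6v1e1 and Atp6v0b, at differences of 0.19 to 0.29. The gap between the nearest samples was only 0.00086 for Atp6v1e1 and 0.025 for Atp6v0b. HSRA-C replicates 3 and 4 were the lowest arrays of Atp6v1a, Atp6v1c1 and Atp6v1e1, though not of Slc26a6 and Atp6v0b. Differences of these genes without those 2 controls are not given here. The 2 lower genes were Slc16a3, a lactate transporter at -0.26 (SE 0.083), and Aqp6, an aquaporin of intercalated cells.

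The basolateral sodium bicarbonate cotransporter Slc4a4 was followed on the proximal side. It was at 11.05, 10.81, 10.75 and 11.11 in HSRA-S and 10.70, 10.84, 10.27 and 10.38 in HSRA-C. HSRA-C replicates 3 and 4 were the lowest, as for Car14, and the groups overlapped through HSRA-C replicate 2. Its difference was 0.38 (SE 0.13), and 0.16 (SE 0.12) without those 2 samples. Slc9a3, the apical sodium proton exchanger, was at 0.17 (SE 0.10), at 0.029 (SE 0.11) without them and at 0.16 (SE 0.13) with the covariate. Genes of intercalated cells were mostly on the lower side. Aqp6 was at -0.42 (SE 0.088), Foxi1, the transcription factor of these cells, at -0.28 (SE 0.082), and Slc4a1, the anion exchanger of their basolateral membrane, at -0.29 (SE 0.12). Without HSRA-C replicates 3 and 4 these 3 were at -0.35 (SE 0.11), -0.22 (SE 0.10) and -0.29 (SE 0.17). With the covariate they were at -0.34 (SE 0.10), -0.19 (SE 0.091) and -0.20 (SE 0.15). Slc4a1 is also among the red blood cell genes used here. The pump subunits Atp6v1b1 and Atp6v0a4 were at -0.10 (SE 0.075) and -0.0037 (SE 0.082), and Atp6v0a4 at -0.10 (SE 0.085) without HSRA-C replicates 3 and 4 and -0.12 (SE 0.076) with the covariate. Rhcg, an ammonia transporter, was at -0.14 (SE 0.070), while the chloride bicarbonate exchangers Slc26a4 and Slc4a2 were at 0.063 (SE 0.12) and 0.086 (SE 0.064). Over the 10 intercalated cell genes, 8 were lower and 2 higher, and 0 passed the test in limma, with 3 at an unadjusted p under 0.05. Of all genes tested 6145 of 13796 were lower, and 12.1% had such a p. The lower side was not particular to these cells. It also held 8 of 8 collecting duct principal cell genes and 7 of 7 inner medullary genes, while 14 of 18 proximal tubule genes were higher. The mean log2 level of the intercalated cell genes was 7.93 to 8.14 in HSRA-S and 8.11 to 8.19 in HSRA-C. Car2, which intercalated cells also hold, stood at 0.049.

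**Figure D5:**
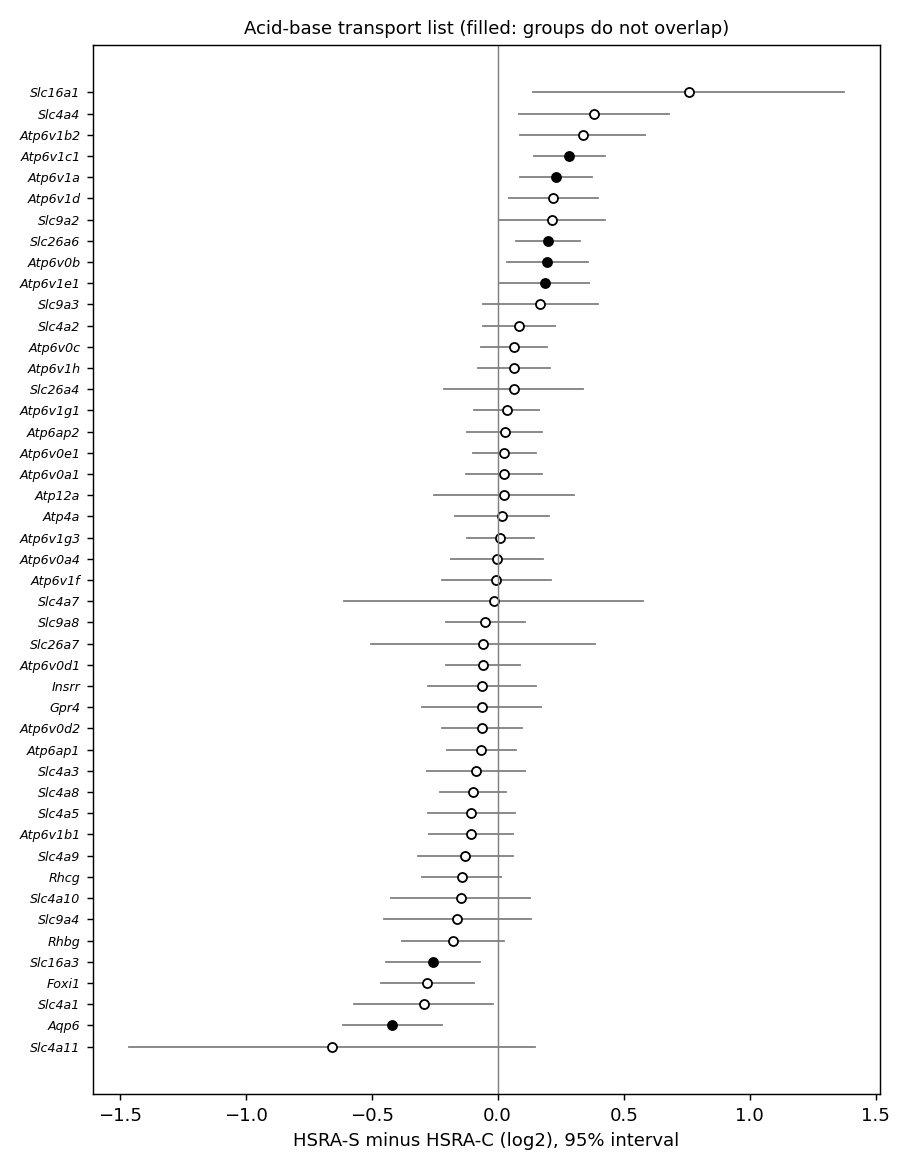
Difference of the 46 tested genes of the acid-base transport list, HSRA-S minus HSRA-C, on the log2 scale with 95% intervals (x axis), ordered by size (y axis). Filled points mark the 7 genes whose groups do not overlap, 5 on the higher and 2 on the lower side, where 6.29% of all genes tested did not overlap.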

How the data were processed

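Whole kidney RNA of 8 rats was measured, 1 array per animal. The deposited values are intensities on a linear scale, made with RMA per the submitters' processing notes. The sources used here do not name its software or version. The method corrects background, makes the arrays' distributions equal and combines the probes of a transcript. The log2 of the deposited intensity was taken.

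Of 29214 probe sets, 18644 were paired with 1 gene symbol, 962 with several and 9608 with none. Genes were named from the first kind, the brightest probe set per gene was used, and the dimmest 20% of genes were left out, below a log2 mean of 3.63. All 10 members matched RefSeq by gene ID. Differences, SEs and 95% intervals come from limma 3.58.1 in R 4.3.3 (lmFit and eBayes, group as the only term), with Benjamini-Hochberg adjustment over all 13796 genes at 0.05, and the steps were tested on simulated data. P-values set the group difference against the spread within these groups of 4 animals, moderated with the spread of all genes.

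The members and gene lists were chosen with earlier results of these data known. All members, the other carbonic anhydrases on the array and 10 fixed acid-base genes were named whatever their values. Likeness was measured for the members of widest difference and range. The inner medullary genes, the urothelial genes, Nphs1 and the neighbouring genes are not covered by this rule and were chosen after seeing the data. The same holds for the acid-base genes named only because their groups did not overlap.

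The replicate numbers of the labels gave no sign of pairing: deviations of same-numbered samples from their group means correlated at -0.068, 0.070, 0.13 and -0.11. With 4 arrays per group these values cannot exclude a shared litter or batch.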

Additional observations from a re-analysis of the deposited data

Results flagged for a closer look

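In 54 groups of 4 samples examined, 7 held a sample whose gap to its nearest neighbour took up more of the group's range than Dixon's 95% critical value of 0.829, where chance gives about 1 group in 20. HSRA-S replicate 4 was the high sample for Car4 (0.93 of the range), Car5b (0.84) and Car14 (0.84), at log2 9.58, 9.997 and 7.58. This array also had the highest tubule balance, 2.68, and the lowest Slc14a2, 4.44. Car15 was low in HSRA-C replicate 4 (0.84 of the range), at 7.28 against 7.69 to 7.76 in the other controls. Among the acid-base genes, Slc4a1 was high in HSRA-S replicate 3 (0.86), at 8.75 against 8.15 to 8.23, and Slc26a4 was high in HSRA-S replicate 1 (0.87), at 8.12 against 7.53 to 7.60. Aqp6 was low in HSRA-C replicate 1 (0.84), at 9.78 against 10.001 to 10.042.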

How the results depend on the processing

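Among the alternatives run, Car8, Car11, Car14 and Car15 kept their sign in all 18. Car2, Car5b and Car12 kept it in 15 of 18, Car4 in 16 of 18 and Car3 in 11 of 17. These tallies hold settings that cannot change a difference. They are the changed filters on dim genes, the intensity trend and the replicate block. Averaging probe sets cannot change it either for a member with a single probe set. The tallies therefore overstate how often a sign could have turned. Car11 ranged from -0.51 to -0.40 and Car14 from 0.23 to 0.85. The count of genes past the threshold was 0 except 1, Hoxb5, with the dimmest 50% left out and with an intensity trend and robust estimation, and 0 in each fit without a single replicate. With the replicate number as a replicate block it was 0, with 1586 genes at an unadjusted p under 0.05, and the SE of Car14 was 0.20. The members whose groups did not overlap numbered 2 to 4 when single replicates were left out. They were 4 without HSRA-C replicate 1, with Car4 and Car8 added, and 3 without HSRA-S replicate 4, with Car5b added. Leaving out an array can only keep or raise this count. The share over all genes was not counted with fewer arrays, so nothing is read from these counts. The median of the acid-base list was 0.061 without HSRA-S replicate 4 and HSRA-C replicates 3 and 4, an alternative chosen after seeing the data, and the cause was not tested. Its sign also turned with the dimmest 50% left out, with arrays centred on the median, with the covariate, without HSRA-C replicates 3 and 4, and without HSRA-S replicate 2, HSRA-S replicate 3 or HSRA-C replicate 3. The fit on linear intensities gave calls only, and overlap was not counted with a covariate, a block or a trend. Dim genes such as Car3 and Car13 are limited by signal over background.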
